A study of Saccharomyces cerevisiae with 10 samples.

Results

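The 32 genes described here encode the yeast proteasome: the 14 subunits of its core particle, 17 subunits of its regulatory particle, and RPN4, the transcription factor that activates their genes. They were taken by name as genes of this complex, and each was found once by its gene symbol among the 6277 rows of the array table. The table compares 2 strains of Saccharomyces cerevisiae, named DJ28 and FY23, on 10 spotted arrays that each carried total RNA of both strains. On arrays 1 to 5 DJ28 carried Cy3 and FY23 carried Cy5, and the labelling was reversed on arrays 6 to 10. According to the title, the study concerns a mutant in which the Ras/cAMP pathway is constitutively activated, and the keywords name PDE2, a cyclic AMP phosphodiesterase gene. The labels give neither the genotype of DJ28 or FY23 nor the growth conditions, and they name no separate cultures behind the arrays. The p-values therefore reflect the spread between arrays, which may be technical.

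The proteasome is the protease that degrades proteins tagged with ubiquitin. Its core particle is a barrel of alpha and beta rings with the proteolytic sites inside, and the regulatory particle that caps it recognises, unfolds and deubiquitinates substrates. Rpn4 binds a shared promoter element of proteasome genes and is itself a short-lived substrate of the proteasome, which links the activity of the protease to the transcription of its subunits.

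The values are log2 ratios of the dyes, centred here on the median of each array and turned to DJ28 over FY23. No source used here states which dye is the numerator. The direction used takes PDE2 as lower in DJ28 and is likely but not settled: it assumes that DJ28 is the mutant and that a loss of PDE2 activates the pathway. Under the opposite direction every "higher" and "lower" below turns together, ranks and shares from the lowest become those from the highest, and "toward Cy5" becomes toward Cy3, while sizes and p-values stay. PDE2 itself differed 3.89-fold (log2 difference -1.96, standard error 0.168, limma adjusted p = 0.00153), with the same sign on 8 of 8 replicates with a value. Arrays 6 and 7 were close to identical (r = 0.988, next closest pair 0.694) and their mean was used as a single replicate, giving 5 replicates with DJ28 in Cy3 and 4 with the dyes reversed. Array 1 held 2230 values and array 2 held 4342, against 5755 to 6048 on the others, and these 2 arrays measured 19 and 29 of the 32 members.

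The tested proteasome genes mostly had small positive differences (higher in DJ28), and none of them passed the test. Of the 28 members with values on at least 3 replicates of each orientation, 25 had a positive difference and 3 a negative one, with a median of 0.14. Over all 5642 genes tested, 56.1% of differences were above 0 and the median was 0.032. This share varied with gene length, as described below. It was 76.7% and 71.4% in the bins of short genes that hold all tested core genes. In the bin that holds 9 of the tested regulatory genes it was 62.2%, and in the bins of longer genes 41% and 28%. In limma's moderated test with Benjamini-Hochberg adjustment over all genes, 0 of 28 members were called, where 0.549% of all genes were. At an unadjusted p under 0.05 there were 3 members, PRE5 and PUP1 higher and RPN1 lower, where 13.3% of all genes passed. No member was called under any of the alternative fits, and the lowest adjusted p among them was 0.0661, for RPN1 with array weights. The standard errors of the members ran from 0.097 to 0.189 on the log2 scale. Both bounds of the 95% interval lay inside 1.5-fold for 25 of the 28 members and inside 2-fold for 27, RPN1 being the exception in the latter.

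**Figure D1:**
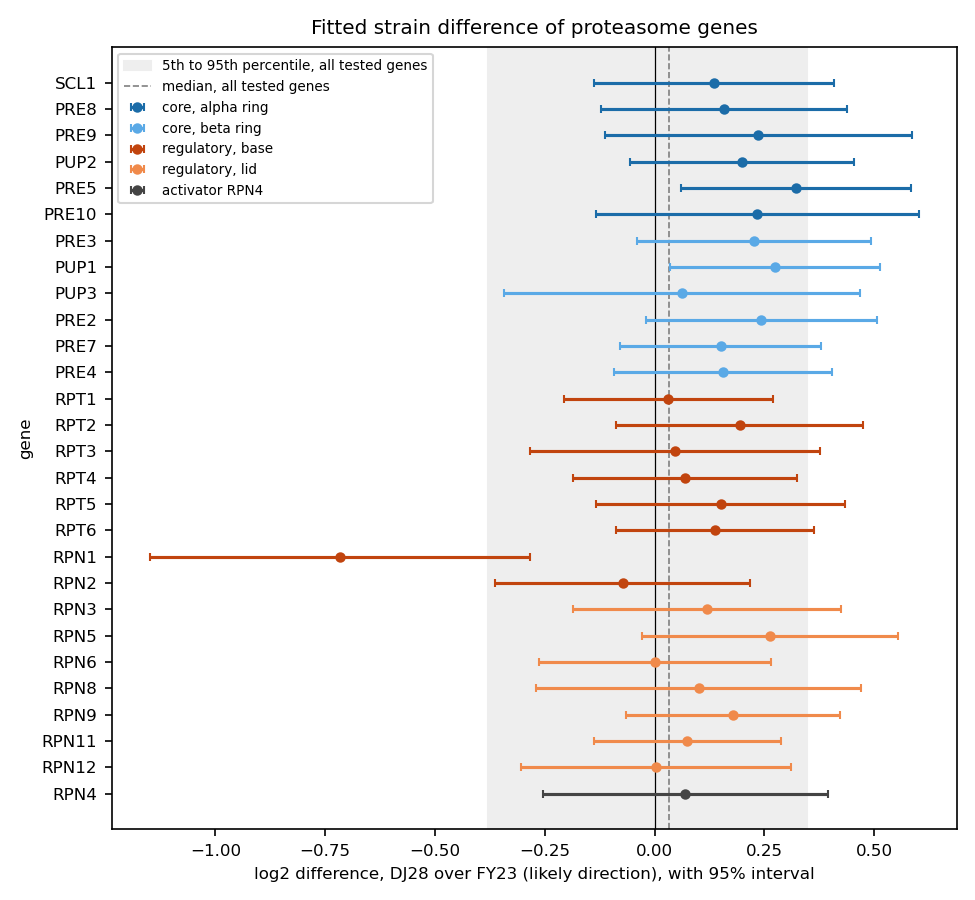
Fitted log2 difference, DJ28 over FY23 (likely direction), of the 28 tested proteasome genes with 95% intervals, coloured by subcomplex. The grey band spans the 5th to 95th percentile of all tested genes (-0.38 to 0.35); the core genes lie between 0.062 and 0.32, and RPN1 alone lies left of the band at -0.72.

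In the core particle all 12 tested genes had a positive difference, from 0.062 for PUP3 to 0.32 for PRE5, with a median of 0.21. The alpha ring, whose subunits gate the entry to the barrel, had a median of 0.22 over 6 tested genes: SCL1 at 0.14, PRE8 at 0.16, PRE9 at 0.24, PUP2 at 0.20, PRE5 at 0.32 and PRE10 at 0.23. PRE9 encodes the only alpha subunit that yeast can live without. The beta ring had a median of 0.19 over 6 tested genes. None of these values passed over all genes tested, and the lowest adjusted p in the core particle was 0.308.

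PRE5, an alpha subunit gene with the largest difference of the core particle, read 0.050, -0.49, 0.037, -0.41 and 0.055 on arrays 1 to 5. With DJ28 in Cy5 it read 1.43 on the mean of arrays 6 and 7, 0.66 on array 8, 0.62 on array 9 and 0.46 on array 10. The values of the orientations did not overlap: PRE5 was near or below 0 on every array with DJ28 in Cy3 and above 0 on every array with DJ28 in Cy5. Its fitted difference was 0.32 ± 0.12 (SE, limma adjusted p = 0.308), and it was higher in DJ28 on 7 of 9 replicates.

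The proteolytic sites lie in PUP1, PRE3 and PRE2, and the first pair showed the same split by dye orientation. PUP1, which provides the trypsin-like activity, read 0.055, -0.34, -0.28, -0.037 and -0.020 on arrays 1 to 5, and 1.23, 0.72, 0.39 and 0.35 on arrays 6 and 7, 8, 9 and 10. Its difference was 0.27 ± 0.109 (SE, limma adjusted p = 0.335). PRE3, which provides the caspase-like activity, read -0.18, -0.34, -0.35, -0.44 and 0.073 on arrays 1 to 5. With DJ28 in Cy5 PRE3 read 1.43, 0.56, 0.33 and 0.49. For both genes the lowest value with DJ28 in Cy5 was above the highest with DJ28 in Cy3. The fitted difference of PRE3 was 0.23 ± 0.122 (SE, limma adjusted p = 0.434).

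PRE2, which provides the chymotrypsin-like activity, read 0.009, -0.21, -0.49, 0.39 and 0.010 on arrays 1 to 5, and 1.10, 0.50, 0.23 and 0.36 with DJ28 in Cy5. Here the orientations overlapped, because array 4 read above arrays 9 and 10. Its difference was 0.24 ± 0.12 (SE, limma adjusted p = 0.398), higher in DJ28 on 7 of 9 replicates. Of the beta subunits without a proteolytic site, PRE7 was at 0.15 and PRE4 at 0.16.

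PUP3, another such beta subunit, went against the other core genes in its pattern over the orientations and is described because of its values. It read 1.502, 0.66, 0.082 and -0.28 on arrays 2 to 5, and -0.22, -0.68, -0.63 and 0.057 with DJ28 in Cy5. It was thus mostly high where the other core genes were low, and the orientations overlapped. Its dye term was -0.43 (limma adjusted p = 0.189), the only negative one among the 12 core genes, and its strain difference of 0.062 had a 95% interval from -0.34 to 0.47.

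**Figure D2:**
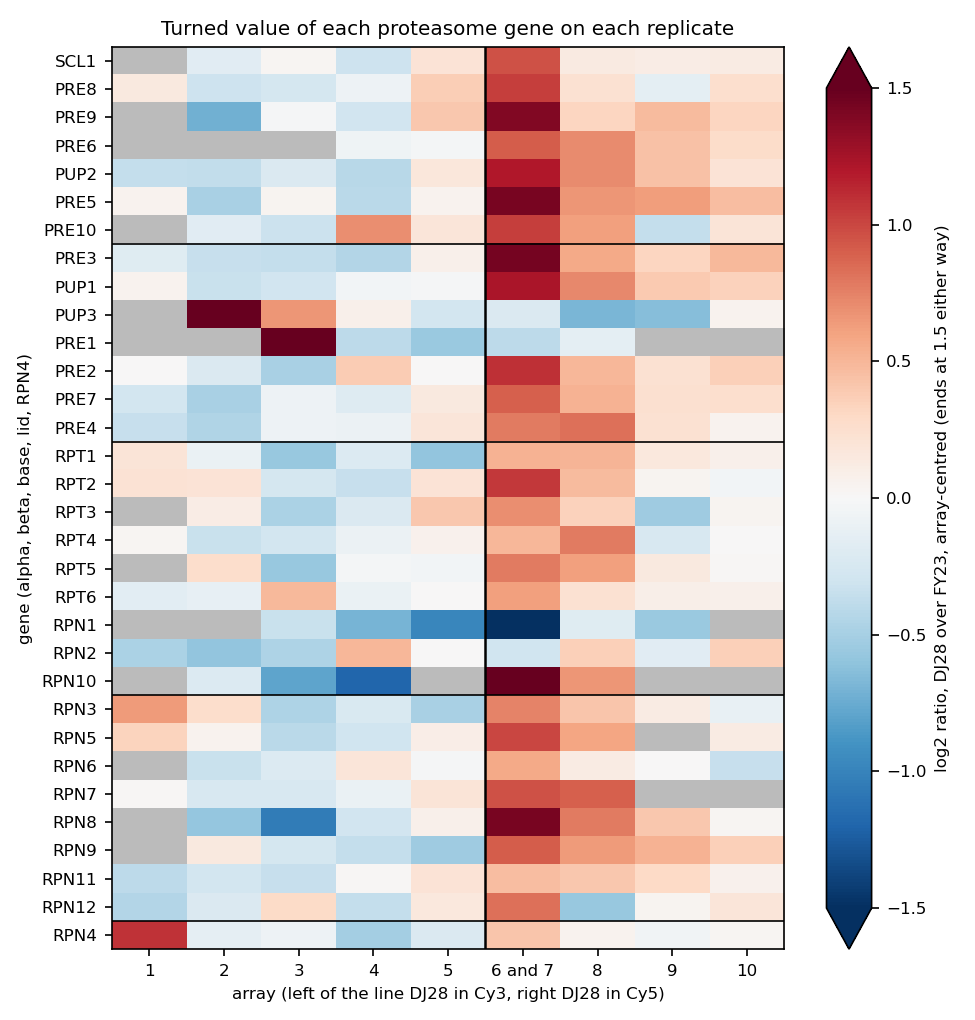
Array-centred log2 ratio, DJ28 over FY23, of the 32 proteasome genes (rows, ordered by subcomplex) on the 9 replicates (columns), with missing values in grey; the colour scale ends at 1.5 in both directions. The column of arrays 6 and 7 is the darkest red, most core genes are pale blue on arrays 2 to 4, and RPN1 is blue wherever it was measured.

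The regulatory particle lay closer to 0. Of its 15 tested genes 12 had a positive and 3 a negative difference, with a median of 0.074, and 0 were called (lowest limma adjusted p = 0.205). In the base, which contacts the core, the 6 ATPase genes that drive unfolding all had positive differences: RPT1 0.031, RPT2 0.19, RPT3 0.047, RPT4 0.069, RPT5 0.15 and RPT6 0.14. RPT2, the largest of them, read 0.21, 0.21, -0.26, -0.34 and 0.20 on arrays 1 to 5 and 1.06, 0.48, 0.043 and -0.042 with DJ28 in Cy5. Its orientations overlapped, and its difference had a standard error of 0.128 (limma adjusted p = 0.519).

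In the lid, which removes ubiquitin chains, the median over 7 tested genes was 0.10. RPN5 was the highest at 0.26 ± 0.131 (SE, limma adjusted p = 0.408). It read 0.33, 0.055, -0.40, -0.30 and 0.095 on arrays 1 to 5, and 1.00, 0.59 and 0.12 on arrays 6 and 7, 8 and 10, with no value on array 9. The deubiquitinase gene RPN11 was at 0.074, and RPN8, whose product pairs with Rpn11, was at 0.10. RPN9 was at 0.18, RPN3 at 0.12, RPN12 at 0.003 and RPN6 at -0.00022.

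RPN1 stood apart from all other members. It encodes the large scaffold subunit of the base to which ubiquitin shuttle proteins dock. It read -0.34, -0.69 and -0.98 on arrays 3, 4 and 5, and -1.55, -0.18 and -0.56 on arrays 6 and 7, 8 and 9, with no value on arrays 1, 2 and 10. It was lower in DJ28 on 6 of 6 replicates with a value, in both orientations. Its difference was -0.72 with a standard error of 0.189, or 1.64-fold (95% interval 1.22-fold to 2.22-fold), and it did not pass over all genes (limma adjusted p = 0.205). Among all 5642 tested genes it ranked 40 from the lowest, or 40 from the highest under the opposite direction. It was the only member with the same sign on every replicate: 1.33% of all genes were lower and 0.798% higher in DJ28 on every replicate they had. RPN1 had 3 values in each orientation, the fewest the test admits, while the other tested members had 8 or 9 values. The same sign throughout is easier to reach with fewer values, and these shares are not matched for their number. Under the alternatives in which it could be tested its difference ran from -0.87 to -0.58. Without array 3, 4, 5, 8 or 9, or without both arrays 6 and 7, it had too few values for the test. The range thus holds no fit of both orientations without arrays 6 and 7, where RPN1 read lowest. With DJ28 in Cy3 only its difference was -0.67. RPN2, the other large scaffold subunit of the base, was at -0.073 with a 95% interval from -0.36 to 0.22, lower on 5 of 9 replicates.

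RPN4 itself did not pass the test. It read 1.08, -0.14, -0.075, -0.51 and -0.21 on arrays 1 to 5, and 0.42, 0.048, -0.056 and 0.025 with DJ28 in Cy5. Array 1 and the mean of arrays 6 and 7 read highest, and the orientations overlapped. The difference was 0.069 with a standard error of 0.148 and a 95% interval from -0.25 to 0.39 (limma adjusted p = 0.856). Without array 1 it was -0.062. It was -0.19 within arrays 4, 5, 9 and 10, the only ones with readings at the ceiling of the scale (none of them of a member), and 0.26 within the remaining arrays.

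PRE6, RPN7, RPN10 and PRE1 had too few values for the test and are given by their readings alone. PRE6, an alpha subunit gene, read -0.060 and -0.032 on arrays 4 and 5 and 0.90, 0.71, 0.44 and 0.28 with DJ28 in Cy5. RPN7, a lid gene, read 0.015, -0.24, -0.24, -0.094 and 0.19 on arrays 1 to 5 and 0.95 and 0.89 on arrays 6 and 7 and 8. Both followed the pattern of most core genes over the orientations. RPN10 encodes a ubiquitin receptor. It read -0.21, -0.79 and -1.19 on arrays 2 to 4, and 1.49 and 0.66 on arrays 6 and 7 and 8. Its sign thus changed with the orientation. PRE1, a beta subunit gene, read 2.08, -0.39 and -0.56 on arrays 3 to 5 and -0.39 and -0.15 on arrays 6 and 7 and 8, with array 3 far above the others.

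Turned values of most members were higher where DJ28 was in Cy5. The dye term, the part of the ratio that did not turn with the strains, had one sign (toward Cy5, or toward Cy3 under the opposite direction) for 26 of 28 members and for 44.3% of all genes, and its median over the members was 0.21. In limma's test of the dye term 0 members were called, where 3.05% of all genes were. For PRE3, PRE5, PRE7, PUP1, PUP2 and RPN9, 6 of the 28, every turned value with DJ28 in Cy5 exceeded every one with DJ28 in Cy3, as for 8.4% of all genes. The reverse order was seen for 0 members and 8.95% of all genes. The mean of arrays 6 and 7 gave the highest value of 22 of the 28 members, 10 of them in the core and 12 in the regulatory particle, and of 21.5% of all genes.

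The comparison of the particles gave a core median above the regulatory median on 7 of 9 replicates, with a size within the spread between replicates. The core medians on arrays 1 to 5 were -0.086, -0.34, -0.15, -0.14 and 0.16, and the regulatory medians were 0.031, -0.11, -0.34, -0.22 and 0.006. With DJ28 in Cy5 the core medians were 1.07, 0.54, 0.24 and 0.25 on arrays 6 and 7, 8, 9 and 10, and the regulatory medians were 0.69, 0.42, 0.066 and 0.054. The core was thus below the regulatory particle on arrays 1 and 2, the arrays with fewest values, and above it on the remaining replicates. The medians of array 1 rest on 8 core and 9 regulatory genes, and those of array 2 on 12 and 14. The core minus regulatory difference was 0.015 ± 0.18 (SD, n = 5) with DJ28 in Cy3 and 0.22 ± 0.109 (SD, n = 4) with DJ28 in Cy5. Over all replicates it was 0.105 ± 0.179 (SD, n = 9), and between the medians of the fitted differences it was 0.14. No p-value is given for a median over chosen members.

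**Figure D3:**
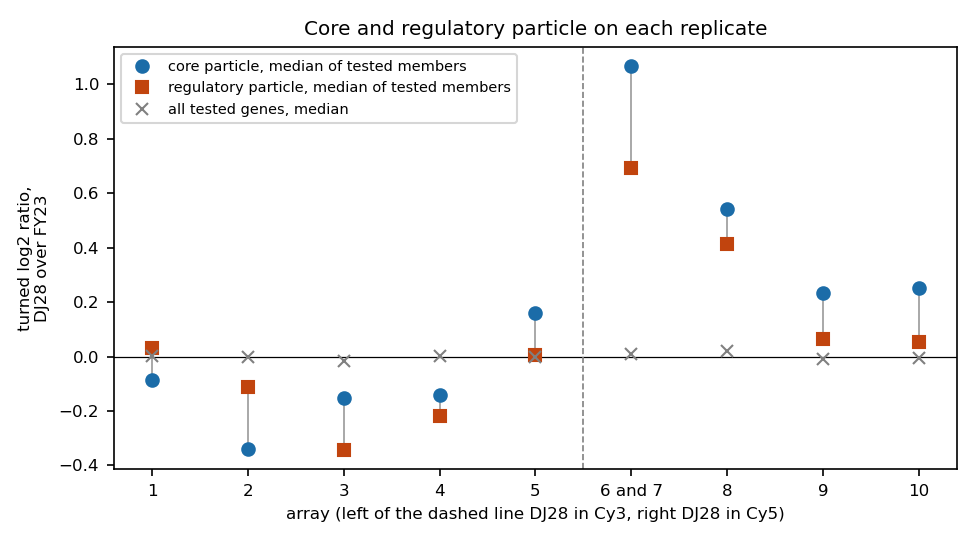
Median turned log2 ratio (DJ28 over FY23) of the tested core genes (circles), the tested regulatory genes (squares) and all tested genes (crosses) on each of the 9 replicates, with the dye orientations either side of the dashed line. Both particles lie between -0.34 and 0.16 with DJ28 in Cy3 and between 0.054 and 1.07 with DJ28 in Cy5, while the median of all genes stays near 0.

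Both medians were smaller without arrays 6 and 7. With these left out, the core median was 0.11 with 12 of 12 genes positive, the regulatory median was 0.029 with 7 of 13 positive, and the core minus regulatory difference was 0.077. Without array 9 the regulatory median was 0.15, and without array 10 it was 0.113. With array weights the medians were 0.079 and -0.011. Within arrays 4, 5, 9 and 10 the core median was 0.112 and the regulatory median -0.00025, and within the remaining arrays they were 0.30 and 0.235. With DJ28 in Cy3 alone both medians were negative, at -0.12 and -0.11, and with DJ28 in Cy5 alone they were 0.55 and 0.29. These single-orientation values hold, along with the strain difference, any effect of dye or of array set.

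Values of single members also depended on which arrays entered. Without arrays 6 and 7 the difference moved by over 1.5 times for 23 of the 26 members still tested, 10 of them core genes. In the core, SCL1 was then at 0.03, PRE8 at 0.043, PRE9 at 0.109, PUP2 at 0.107, PRE10 at 0.122, PRE3 at 0.106, PUP1 at 0.181, PRE2 at 0.151, PRE7 at 0.081 and PUP3 at 0.036, all still above 0. In the regulatory particle, RPT2 was at 0.082, RPT5 at 0.085, RPT6 at 0.076, RPN3 at 0.043 and RPN11 at 0.049. Leaving out 1 array in turn moved the difference by over 1.5 times for 18 of the 28 members. No share over all genes is given beside either count. Both counts include differences near 0, where a small move passes the rule. RPN12, at 0.003, was moved by each of the 10 arrays left out, and RPN6, at -0.00022, by 9 of them. Of the members that kept their sign, PRE8 was at 0.238 without array 9, PRE9 at 0.143 without array 5, PRE10 at 0.132 without array 4 and 0.355 without array 9, and PRE4 at 0.097 without array 8. RPT5 was at 0.091 without array 2 and 0.23 without array 3, RPT6 at 0.079 without array 3, and RPN2 ranged from -0.16 to -0.024. RPN3 was at 0.032 without array 1, RPN8 at 0.012 without array 5, RPN9 at 0.112 without array 2 and RPN11 at 0.029 without array 5.

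The spread between subunits was also measured within each particle. The SD between members of the fitted difference was 0.070 over the 12 core genes and 0.226 over the 15 regulatory genes. Without PUP3 and RPN1, left out for their values, the SDs were 0.058 and 0.089. The median standard error of a member's difference, 0.121 in the core and 0.128 in the regulatory particle, was above these SDs.

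The strain difference also moved with gene length over the whole table, and the particles differ in length. The core genes have coding lengths (introns included) of 597 to 867 bases with a median of 764.5, and the regulatory genes have 807 to 2982 bases with a median of 1305. Across the 5141 tested genes with a length, Spearman's rho between length and difference was -0.434 and Pearson's r was -0.357. Genes on the same arrays are not independent, so no p-value is given. The direction was not shared by all arrays. On arrays 1, 2, 4 and 8 the longest genes had a higher median than the shortest, as given under other observations. In 5 bins of length with about equal numbers of genes, from shortest to longest, the median difference of all genes was 0.132, 0.10, 0.048, -0.031 and -0.103, and the share of positive differences was 76.7%, 71.4%, 62.2%, 41% and 28%. Of the core genes 10 lie in bin 2, with a median of 0.21, together with RPN8, RPN11 and RPN12 of the lid, with a median of 0.074. In bin 3 lie 9 regulatory genes, with a median of 0.14, and in bin 5 lie RPN1 and RPN2.

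With each array centred within the 5 length bins, an alternative chosen after seeing the data, the core median was 0.146 and the regulatory median 0.035. The core minus regulatory difference was then 0.111, above 0 on 7 of 9 replicates, with an SD of 0.118 over replicates. The replicates below 0 were here arrays 2 and 3 (-0.136 and -0.079), while array 1 was at 0.035. RPN1 was at -0.58 (limma adjusted p = 0.276) and RPN2 at 0.049. PRE5 was at 0.23 (limma adjusted p = 0.402) and PUP1 at 0.21 (limma adjusted p = 0.443).

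**Figure D4:**
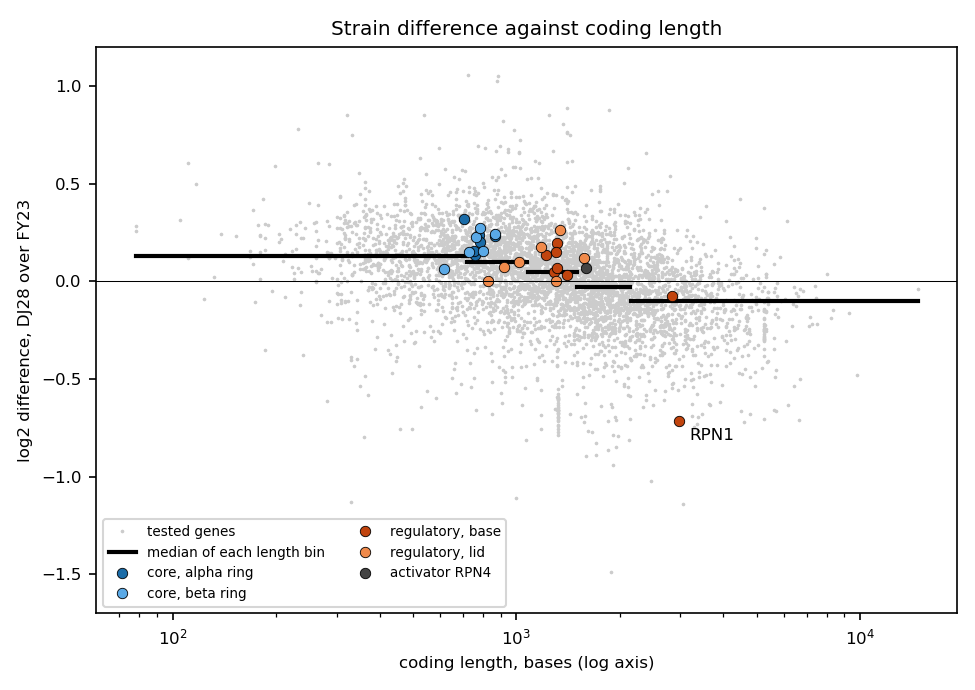
Fitted log2 difference, DJ28 over FY23, against coding length (log axis) for tested genes (grey), with the median of each of 5 length bins as black bars and the tested proteasome genes coloured by subcomplex; 3 genes lie outside the vertical axis. The bars step down from 0.132 to -0.103, core genes sit among short genes above 0, and RPN1 lies far below the bar of its bin.

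Genes that work with the proteasome gave 0 calls in each of the 4 lists. Over all tested genes 0.549% were called, so lists of this size would mostly hold none, and 56.1% of differences were above 0. Among 13 tested genes for further subunits, assembly factors and associated proteins, 8 were higher and 5 lower, with a median of 0.082. PBA1, which encodes a chaperone of alpha ring assembly, had the largest difference at 0.40 ± 0.289 (SE, limma adjusted p = 0.551). ECM29, which encodes a large protein that tethers core and regulatory particle, was at -0.35 (limma adjusted p = 0.36). Among 16 ubiquitin enzymes and related genes 9 were higher and 7 lower, with a median of 0.021. UBA1, the gene of the ubiquitin-activating enzyme at the head of the cascade, was at -0.53 with a standard error of 0.139, lower on 7 of 9 replicates (limma adjusted p = 0.166). TOM1, which encodes a very large ubiquitin ligase, was at -0.48 (limma adjusted p = 0.372).

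Among 10 genes of ubiquitin shuttle factors and the Cdc48 segregase, 5 were higher and 5 lower, with a median of -0.007. UFD1, a cofactor of Cdc48, was at 0.32 (limma adjusted p = 0.373), and CDC48, the ATPase that extracts ubiquitinated proteins, was at -0.25 (limma adjusted p = 0.36). The 4 genes of factors known to act on RPN4 transcription had a median of 0.03, with PDR1 at -0.12 and YAP1 at 0.11 (limma adjusted p = 0.62 and 0.657). The lower genes ECM29, UBA1, TOM1 and CDC48 have coding lengths of 5607, 3075, 9807 and 2508 bases, and UFD1 and PBA1 have 1086 and 917 bases. The part of length in these differences was not tested.

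PRE10 lies near PDE2 on its chromosome, with 1 gene between them in the gene order of assembly R64. It read -0.17, -0.32, 0.70 and 0.18 on arrays 2 to 5 and 1.04, 0.61, -0.36 and 0.19 with DJ28 in Cy5. The orientations overlapped, and its difference of 0.23 ± 0.166 (SE, limma adjusted p = 0.542) lay within the range of the other core genes.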

How the data were processed

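The authors deposited 1 value for each row on an array, and its signs and range were taken to be those of a log2 ratio between dyes. For the deposited values, normalization, background correction and numerator dye are stated in no source used here. The 13 cells at the upper limit of 16.61 were treated as missing, array medians were subtracted, and replicate rows of one gene were averaged. Of the rows 5663 have 1 gene name by the platform annotation, and 5659 of these were matched to assembly R64 by gene identifier. The latter also gave coding lengths and gene order.

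Genes with values on at least 3 replicates of each orientation entered a linear model (limma 3.58.1, R 4.3.3, eBayes) with a dye and a strain term, two-sided, adjusted by Benjamini-Hochberg over all 5642 at a threshold of 0.05. The fit was tested on simulated data with independent noise for each gene and array. Patterns shared by genes on single arrays, such as the step with length, were not simulated. The number of arrays limits the precision.

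Values on every replicate are given for RPN4, the catalytic beta subunits and the 3 largest absolute differences of each particle. For pathway lists the 2 largest are given. PUP3, PRE10 and the untested members were added after their values were seen. Members and lists were chosen with earlier results of these data known. A planned search of promoters for the Rpn4 motif was not run, since no promoter sequences were used here.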

Additional observations from a re-analysis of the deposited data

Results flagged for a closer look

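In 61 groups of values (the 55 with at least 4 values of a member in a dye orientation, and in each orientation the medians of both particles and their difference) the highest or lowest replicate was compared with the others by Dixon's ratio, and 4 were far from the rest. Chance gives about 5% of such groups. RPN4 read 1.08 on array 1, against a next highest value of -0.075 with DJ28 in Cy3. RPT6 read 0.485 on array 3, against 0.006 for the next. On the mean of arrays 6 and 7 SCL1 read 0.96, against 0.133 for the next replicate with DJ28 in Cy5, and PRE9 read 1.393, against 0.48.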

How the results depend on the processing

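With 28 planned or added alternatives, 0 members were called in any. The medians of core and regulatory particle, and core minus regulatory, moved by less than their SDs over all replicates (0.43, 0.316 and 0.179). These SDs hold the split by orientation. They were 0.179, 0.156 and 0.18 with DJ28 in Cy3, and 0.389, 0.307 and 0.109 with DJ28 in Cy5. By this measure a change of sign also counts as not moved. The core median ran from -0.124 (DJ28 in Cy3 only) to 0.546 (DJ28 in Cy5 only), and the regulatory median from -0.114 to 0.294. Core minus regulatory ran from -0.011 (DJ28 in Cy3 only) to 0.252 (DJ28 in Cy5 only), and from 0.098 to 0.166 with single arrays left out. The count over all genes, 31, was 4 with no centring, 79 with 10 arrays counted apart, 17 without arrays 6 and 7, 6 without arrays 1 and 2, 237 with array weights, 0 within arrays 1, 2, 3, 6, 7 and 8, 0 with DJ28 in Cy3 only, 2 with DJ28 in Cy5 only, and 10 to 79 with single arrays left out.

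Of 752 values of single members 677 kept their sign and 75 did not, and the cause was not tested. No member was called in any fit, with or without a change of sign. The 677 include alternatives that leave a member's fitted difference as it was, so its sign could not change. Among these are rows of a gene kept apart, eBayes with trend and robust, no filter on values, and values on all 10 arrays only. For some members the fit with no dye term, or without an array on which they had no value, also left the difference unchanged. With DJ28 in Cy3 only the differences were SCL1 -0.061, PRE8 -0.026, PRE9 -0.155, PUP2 -0.24, PRE5 -0.151, PRE3 -0.249, PUP1 -0.124, PRE2 -0.06, PRE7 -0.178, PRE4 -0.16, RPT1 -0.254, RPT3 -0.044, RPT4 -0.122, RPT5 -0.091, RPN3 -0.057, RPN5 -0.044, RPN8 -0.459, RPN9 -0.253, RPN11 -0.156 and RPN12 -0.114. With DJ28 in Cy5 only they were PUP3 -0.37, RPN2 0.059 and RPN6 0.092. Without arrays 1 and 2 they were PUP3 -0.107, RPT1 -0.069, RPN2 0.037, RPN3 -0.05, RPN6 0.04 and RPN4 -0.078. Within arrays 4, 5, 9 and 10 they were PUP3 -0.192, RPT1 -0.141, RPT2 -0.034, RPT3 -0.076, RPT4 -0.067, RPN2 0.171, RPN3 -0.176, RPN9 -0.00025 and RPN4 -0.188. With array weights they were PRE4 -0.023, RPT1 -0.029, RPT3 -0.013, RPT4 -0.064, RPN8 -0.119, RPN11 -0.011 and RPN12 -0.01. Without arrays 6 and 7 they were RPT1 -0.004, RPT3 -0.046, RPN8 -0.026 and RPN12 -0.115. Centred by length they were PUP3 -0.047, RPT1 -0.004, RPN2 0.049 and RPN12 -0.064. With no dye term RPT1 was -0.00086 and RPN12 -0.01, with no centring RPN2 was 0.019 and RPN6 0.022, with 10 arrays counted apart RPN6 was 0.048, and scaled RPN12 was -0.034. With single arrays left out the ranges were -0.107 to 0.19 for PUP3, -0.025 to 0.073 for RPT1, -0.027 to 0.158 for RPT3, -0.017 to 0.154 for RPT4, -0.046 to 0.072 for RPN6, -0.048 to 0.118 for RPN12 and -0.062 to 0.136 for RPN4.

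Each ratio already pairs the strains on its array. No paired analysis was possible because, beyond that, the orientations share no array number. The search for the promoter motif, and its shorter form, was not run.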

Other observations

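The step from short to long genes was not shared by all arrays. The median of the bin of longest genes minus that of the bin of shortest, in turned values, was 0.111, 0.161, -0.549, 0.2 and -0.156 on arrays 1 to 5. With DJ28 in Cy5 the step was -0.756 for arrays 6 and 7 averaged, 0.109 on array 8, -0.484 on array 9 and -0.38 on array 10. Arrays 6 and 7, where the core median was highest at 1.07, thus also had the largest step, while array 8, with a core median of 0.54, had a step of the opposite sign.

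Other members also neighbour each other in the gene order of assembly R64: PRE4 and RPN12 with 1 gene between them, and RPT4 and RPN8 with 1 gene between them. Their differences were 0.16 and 0.003, and 0.069 and 0.10.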
